A study of Mus musculus with 6 samples.

Results

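Loss of Adar1 during the reprogramming of mouse embryonic fibroblasts was examined by comparing 4 of the 6 libraries of the study, all from cells at day 7 after the start of reprogramming with OSKM (Oct4, Sox2, Klf4 and c-Myc). The 2 wild-type libraries (WT 1 and WT 2) came from Adar1 Fl/Fl cells given vehicle, and the 2 knockout libraries (KO 1 and KO 2) from Adar1 Fl/Fl cells given 4-hydroxytamoxifen (4OHT), the ligand that switches on tamoxifen-inducible Cre. Both groups carried the floxed alleles on both chromosomes and the same OSKM factors, so they differed by label in the drug alone. The sources used here name neither the Cre line nor the exons between the loxP sites. Since 4OHT was not given to cells with intact Adar1 in the libraries analysed, what 4OHT or Cre do by themselves cannot be told apart from the loss of Adar1. The labels number the libraries of a group without saying whether they came from separate cultures, and the p-values therefore measure only how far these libraries scatter, which may be technical.

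Expression was given as FPKM, fragment counts scaled to transcript length and to the mapped total. Of 23406 gene names in the files, 12077 reached at least 1 FPKM in at least 2 of the 4 libraries and were tested with limma on log2(FPKM + 1). A gene was called when its Benjamini-Hochberg adjusted p was under 0.05. Every log2 difference below is KO minus WT on that scale, which understates the change of genes of low FPKM, while folds are ratios of mean FPKM. Of the tested genes, 3615 were called higher in KO, which was 29.9% of all, and 3395 were called lower, which was 28.1%. With an added limit of at least 2-fold, 4.75% of genes were higher and 9.46% were lower. These 4 shares are the background against which each group of genes is read. The 2 WT and 2 KO libraries did not overlap in 9527 tested genes, or 78.9% of all. A lack of overlap, where it is given below, is therefore common and does not set a gene apart. Of 1599 genes in the lists described below, 1335 passed the filter on low values, and counts are over those genes and not over whole lists. A gene that passed through 1 group alone had to differ between the groups, so its direction carries no weight of its own. This holds for every gene below that was under 1 FPKM in both libraries of 1 group.

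ADAR1 converts adenosine to inosine in double-stranded RNA, much of it formed by inverted repeats in introns and untranslated regions. Unedited self RNA can be bound by cytosolic sensors, which start interferon and stress responses and can slow translation. Fibroblasts that are reprogrammed first give up mesenchymal features and gain epithelial ones, divide rapidly and later switch on the pluripotency network. The values below describe the signalling pathways, cell structures and biosynthetic machines that changed around these core programmes.

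Adar itself, at chr3:89715022-89753446 in GRCm38, gave 19.6 and 19.5 FPKM in the WT pair and 34.2 and 31.3 FPKM in the KO pair, a log2 difference of 0.72 (SE 0.10, limma adjusted p = 1.201e-04). It was higher in both KO libraries, and the groups did not overlap. Because the labels do not name the deleted exons, a value summed over the whole gene does not check the label, and each direction below rests on the labels. Replicates resembled each other: Pearson's r over tested genes was 0.995 within WT and 0.995 within KO, and 0.911 to 0.918 between the groups. A difference of 2-fold or more between libraries of a group was seen for 7 genes in WT and 13 in KO. Rows without a gene name held 9.62% and 10.2% of the summed FPKM in WT and 11.4% and 14.2% in KO. The depth is not recorded in FPKM, and the smallest steps between low values gave a rough estimate of 16300000 to 20700000 fragments per library.

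Markers of the cells that the cultures could hold moved with the groups. The summed FPKM of 10 fibroblast markers was 5243 and 4847 in WT and 2682 and 2754 in KO, with 7 of the 9 tested markers lower, while Thy1 and Vim were not called. Pluripotent markers summed to 665 and 527 in WT and to 31.6 and 16.6 in KO. Neural markers summed to 185 and 198 against 56.2 and 69.2. Macrophage markers summed to 27.1 and 24.6 against 7.74 and 6.47, and that fall was carried by 1 gene, Laptm5, which measured 23.4 and 19.9 FPKM in WT and 3.31 and 2.83 FPKM in KO. Of the other macrophage markers, C1qa and C1qb were not called, and 7 of the 10 genes were untested with values under 1 FPKM. Smooth and cardiac muscle markers went the other way, from 557 and 534 to 950.5 and 1119.6, carried by Acta2, Tagln and Cnn1. Of the other markers of that group, Myh11 was not called, and Myh6, Tnnt2 and Actc1 were untested with values under 1 FPKM. Erythroid and lymphoid markers stayed under 1 in all 4 libraries. In these bulk samples, fewer cells of a type and less RNA per cell cannot be told apart, and the part of these shifts in the results below was not tested.

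**Figure D1:**
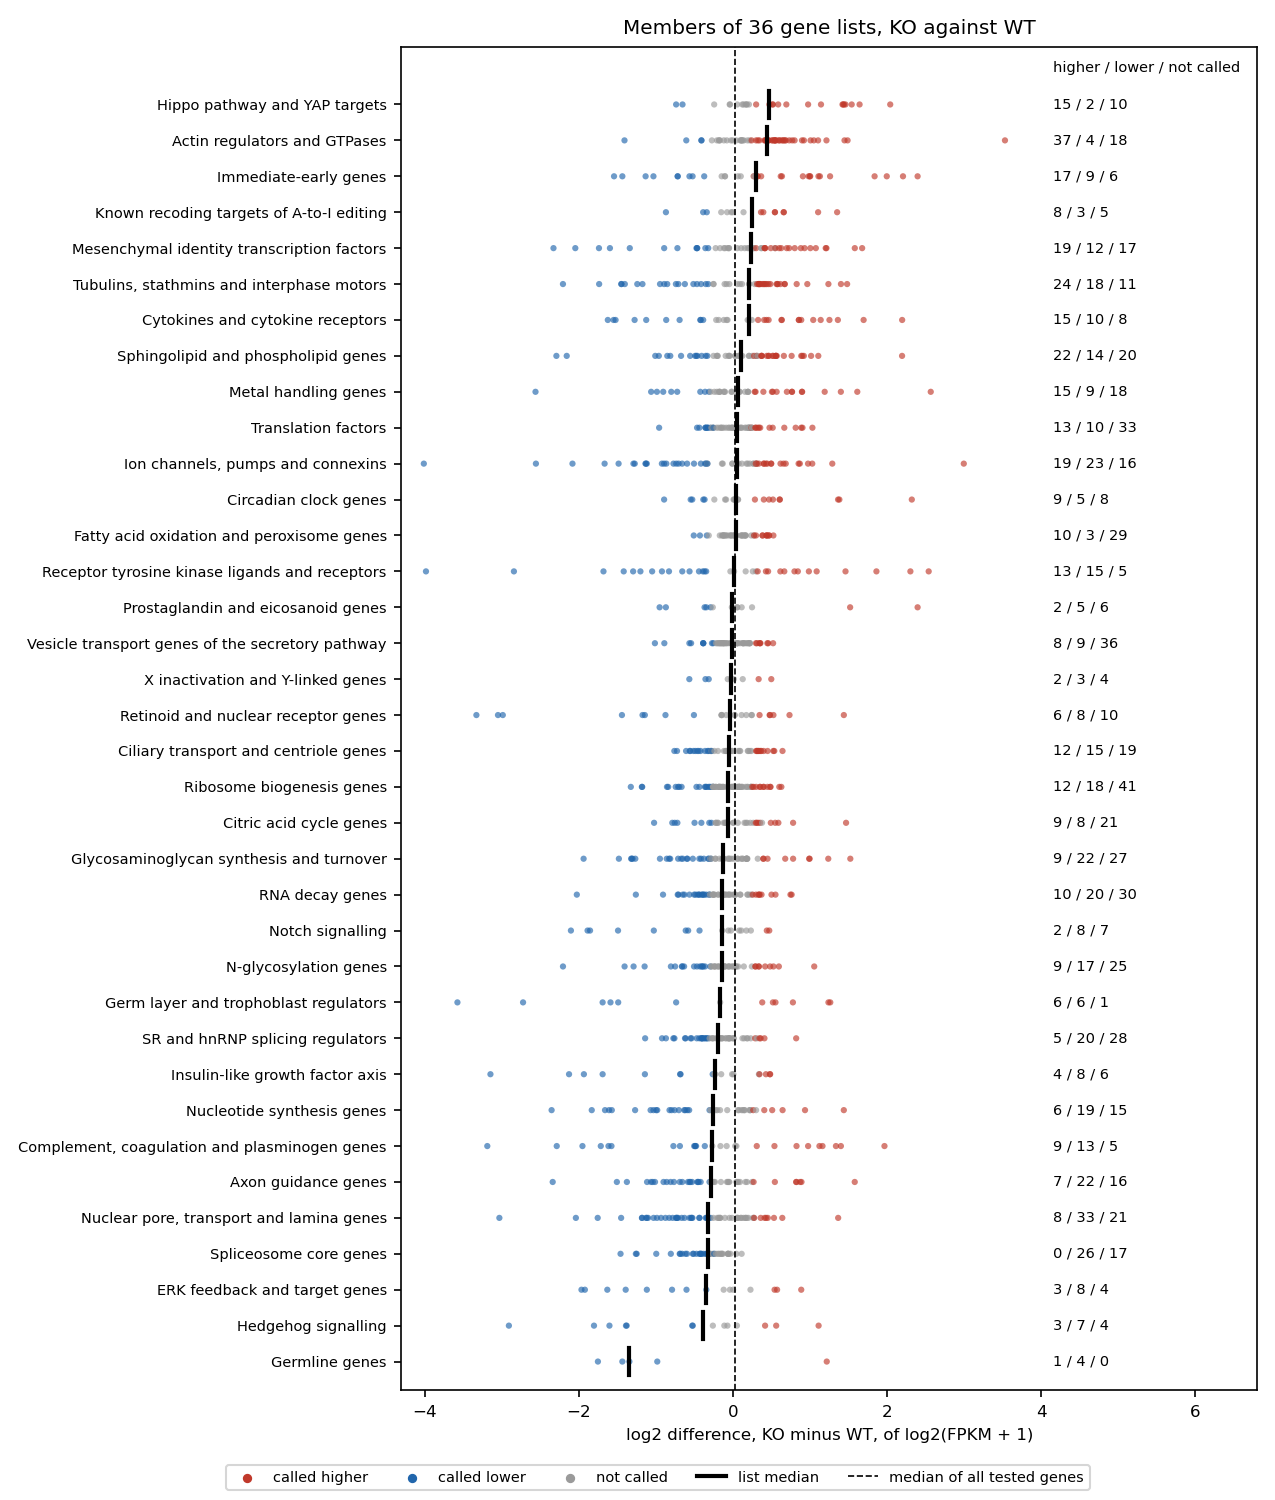
Log2 difference (KO minus WT, of log2(FPKM + 1)) of every tested member of 36 gene lists, 1 row per list and 1 point per gene, with the list median as a thick bar and the median of all 12077 tested genes (0.02) as a dashed line. Hippo and actin genes lie mostly to the right and spliceosome, nuclear pore, Hedgehog and ERK feedback genes mostly to the left, and the counts at the right give the members called higher, called lower and not called.

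Genes of the actin cytoskeleton were mostly higher in KO. Of 59 tested actin regulators and their small GTPases, 37 rose, 4 fell and 18 were not called, with a median log2 difference of 0.45 against 0.02 over all tested genes. Filament proteins and crosslinkers, which bundle actin and tie it to adhesions, rose in 19 of 25 cases and fell in none. Among these GTPases 8 of 15 rose and 1 fell, and among nucleators and effectors 10 of 19 rose and 3 fell.

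Rnd1, at chr15:98663421-98677461, encodes a small GTPase-like protein that opposes RhoA and lets cells round up. It measured 3.71 and 2.9 FPKM in WT 1 and WT 2 and 47.3 and 49.8 FPKM in KO 1 and KO 2. Both KO libraries were far above both WT libraries, a 14.7-fold rise and a log2 difference of 3.53 (SE 0.12, limma adjusted p = 8.62e-09). Rhob, an early-response small GTPase, measured 31 and 29.3 FPKM in WT 1 and WT 2 and 81.5 and 91.5 FPKM in KO 1 and KO 2, a log2 difference of 1.49 (SE 0.10, limma adjusted p = 7.44e-07). Rock2, the kinase through which RhoA raises contractility, measured 25.2 and 30.04 FPKM in WT 1 and WT 2 and 72.7 and 81.1 FPKM in KO 1 and KO 2, a log2 difference of 1.45 (SE 0.11, limma adjusted p = 1.96e-06). In both genes the groups were well apart, with about the same distance. Msn, which links actin to the membrane, rose from 138 ± 0.54 to 322 ± 11.3 FPKM (SD, n = 2 in each group), and Actn1, an actin crosslinker of stress fibres, from 115 ± 4.54 to 249 ± 1.33 FPKM. Zyx, a sensor of strained actin filaments, rose by 0.92 on the log2 scale (limma adjusted p = 1.45e-04). The general GTPases Rac1 and Cdc42 were not called. Rac1 measured 158 and 169 FPKM in WT and 166 and 186 FPKM in KO. Cdc42 measured 299 and 323 FPKM in WT and 331 and 345 FPKM in KO. Wasf1, which turns Rac signals into branched actin and is abundant in neurons, fell from 8.26 and 8.05 to 2.4 and 2.51 FPKM, a log2 difference of -1.41 (SE 0.11, limma adjusted p = 1.84e-06). It was the largest fall of the list, beside 3 smaller ones that included Limk1, with a log2 difference of -0.604 (limma adjusted p = 0.00137).

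The microtubule side of the cytoskeleton split by role. Interphase motors rose in 14 of 22 cases and fell in 1, with a median of 0.39, whereas tubulins rose in 2 of 13 and fell in 10, with a median of -0.62. Tubb4b, a widely expressed beta tubulin, measured 269.6 and 264 FPKM in WT 1 and WT 2 and 102 and 124 FPKM in KO 1 and KO 2, a log2 difference of -1.24 (SE 0.11, limma adjusted p = 5.22e-06). Tuba1b, the main alpha tubulin, measured 485 and 476 FPKM in WT 1 and WT 2 and 298 and 224 FPKM in KO 1 and KO 2, a log2 difference of -0.89 (SE 0.13, limma adjusted p = 1.93e-04). The WT libraries were above the KO libraries in both genes. Tubb6 and Tuba8 rose instead, by 0.49 and 1.4 on the log2 scale. Stmn1, which destabilises microtubules in dividing cells, fell from 189 and 202 to 45.8 and 37.7 FPKM, a log2 difference of -2.2 (SE 0.11, limma adjusted p = 1.01e-07), and Stmn2, its neuronal relative, from 106 and 117 to 27.7 and 38.5 FPKM, a log2 difference of -1.73 (SE 0.14, limma adjusted p = 2.64e-06). Kif1a, a motor for vesicle transport, rose from 8.06 ± 0.53 to 20.4 ± 0.399 FPKM, and Map6, which stabilises microtubules, from 19.9 ± 1.64 to 57.4 ± 3.01 FPKM. Tubulin genes have near-identical copies, and the sources used here do not say how shared fragments were divided, so the levels of single tubulins are uncertain.

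The Hippo pathway senses cell density and tension, and its kinases LATS1 and LATS2 keep the coactivators YAP and TAZ out of the nucleus, where they would act with TEAD factors. Of 27 tested members 15 rose, 2 fell and 10 were not called, with a median of 0.47. Genes known as YAP and TAZ targets rose in 9 of 12 cases and fell in none (median 1.06), kinase-arm genes rose in 4 of 8 (0.35), and the coactivators and TEAD partners rose in 2 of 7 (0.14). To show the letters that TEAD factors are known to bind, the promoter stretches of 5 of them that hold the TEAD core letters are printed here, from RefSeq in GRCm38.p6, 5′ to 3′ on the gene's strand. Capitals mark the first match of GGAATG or, on the opposite strand, CATTCC. They are Amotl2 (chr9:102717714-102717769 on the plus strand), Ankrd1 (chr19:36120024-36120079 on the minus strand), Axl (chr7:25788936-25788983 on the minus strand), Ajuba (chr14:54577817-54577872 on the minus strand) and Crim1 (chr17:78200144-78200199 on the plus strand).
Amotl2: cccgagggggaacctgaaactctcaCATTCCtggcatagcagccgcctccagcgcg
Ankrd1: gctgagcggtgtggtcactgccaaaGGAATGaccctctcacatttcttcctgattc
Axl: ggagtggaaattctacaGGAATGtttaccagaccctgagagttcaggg
Ajuba: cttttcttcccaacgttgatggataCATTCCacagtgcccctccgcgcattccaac
Crim1: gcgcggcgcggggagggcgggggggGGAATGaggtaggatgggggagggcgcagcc
These letters were found in 5 of the 8 targets with a promoter in the table and in 12 of all 20 such list members, against 14.4% of the 8888 tested genes with a promoter. A match describes letters in a window of 300 bases and not a bound site.

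Amotl2, a junction protein that holds YAP at the membrane and is itself a YAP target, measured 27.3 and 26.5 FPKM in WT 1 and WT 2 and 119 and 109 FPKM in KO 1 and KO 2, a 4.24-fold rise and a log2 difference of 2.04 (SE 0.10, limma adjusted p = 6.403e-08). Ankrd1, a classical YAP target of stretched cells, measured 4.93 and 5.27 FPKM in WT 1 and WT 2 and 18 and 18.2 FPKM in KO 1 and KO 2, a log2 difference of 1.64 (SE 0.10, limma adjusted p = 3.98e-07). In each gene both KO libraries exceeded both WT libraries by more than the spread within either group. Axl, a receptor tyrosine kinase for Gas6, measured 54.9 and 51.3 FPKM in WT 1 and WT 2 and 156 and 140.1 FPKM in KO 1 and KO 2, a log2 difference of 1.46 (SE 0.10, limma adjusted p = 8.17e-07). Ajuba, Crim1 and Nt5e rose by 1.42, 1.14 and 1.43 on the log2 scale. Lats2, the kinase that restrains YAP, rose from 18.7 ± 0.0995 to 52.7 ± 2.76 FPKM, and Vgll3, a TEAD partner, from 15.8 ± 2.79 to 47.6 ± 3.28 FPKM. Yap1 measured 67.3 and 65.5 FPKM in WT 1 and WT 2 and 72.1 and 78.2 FPKM in KO 1 and KO 2 (limma adjusted p = 0.137) and Wwtr1, which encodes TAZ, measured 39 and 43.3 FPKM in WT 1 and WT 2 and 46.5 and 44.2 FPKM in KO 1 and KO 2 (limma adjusted p = 0.254), and neither was called. Nf2 and Tead4 were the 2 members that fell, with log2 differences of -0.65 and -0.74. Among the targets often read as reporters of the pathway, Cyr61 was not called with 219 and 203 FPKM in WT 1 and WT 2 and 251 and 223 FPKM in KO 1 and KO 2, and Ctgf rose by 0.59.

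**Figure D2:**
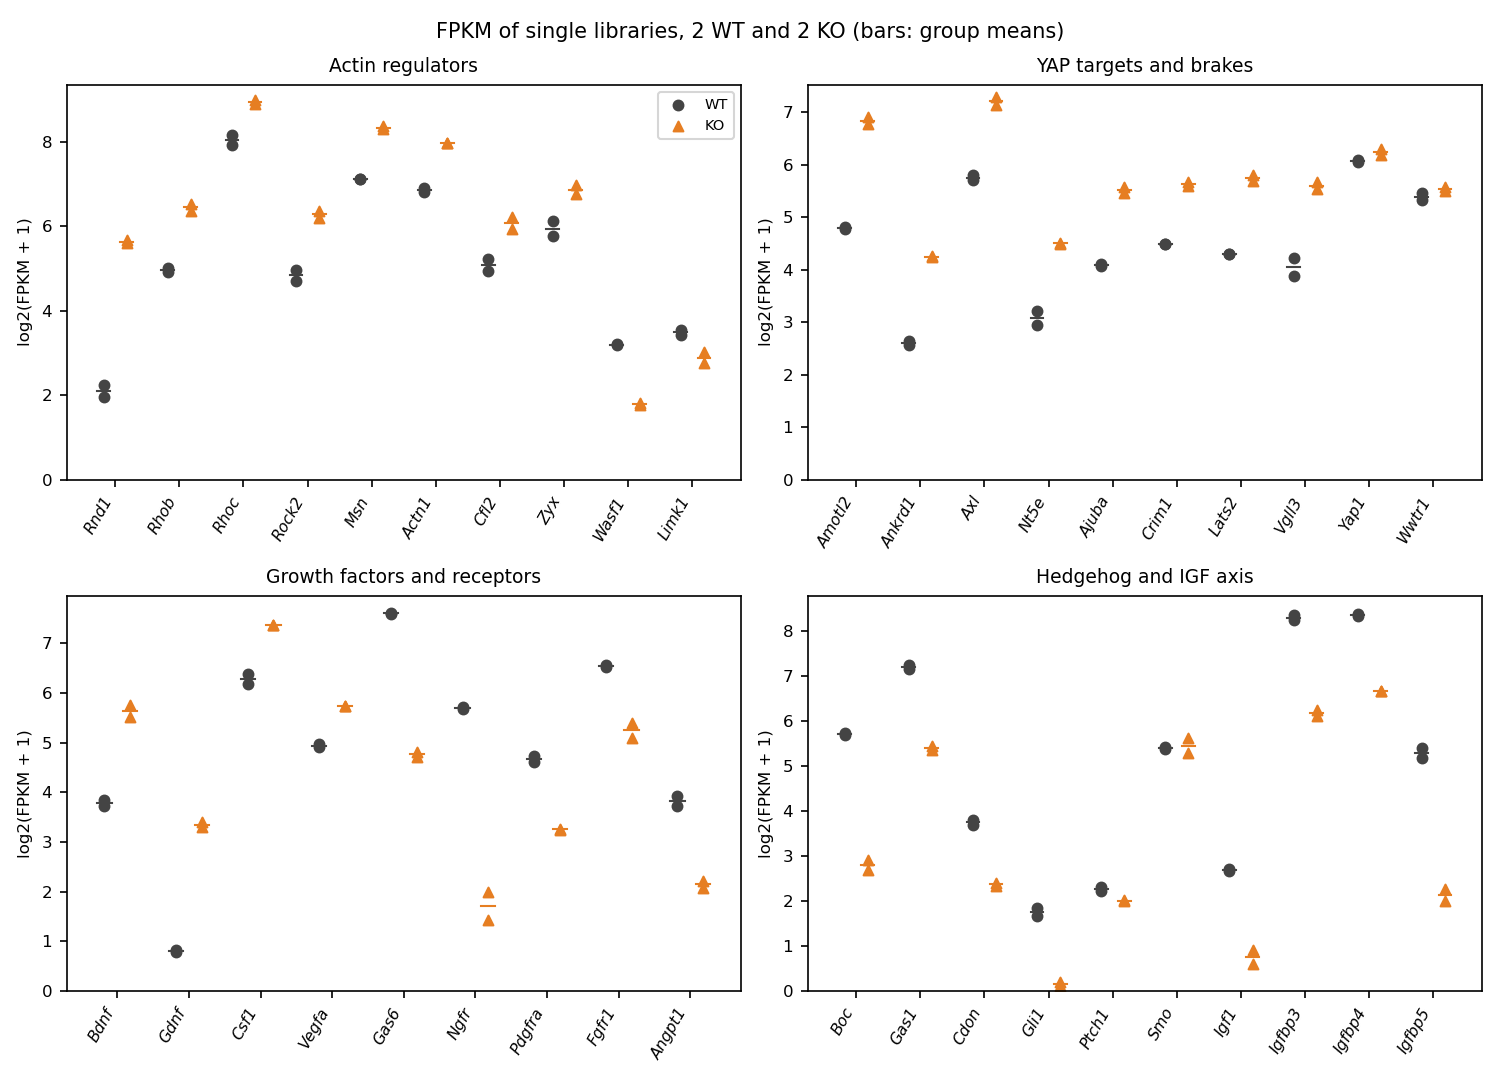
Log2(FPKM + 1) of single libraries for genes of 4 groups (actin regulators, Hippo and YAP genes, growth factors and receptors, and Hedgehog and insulin-like growth factor genes), with WT as circles, KO as triangles and a bar at each group mean. KO lies above WT for Rnd1, Amotl2, Bdnf and Gdnf and below it for Ngfr, Gas6, Boc and Igfbp5, while Yap1 and Wwtr1 lie close together.

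Immediate-early genes answer mitogens and stress without new protein synthesis. Of 32 tested, 17 rose, 9 fell and 6 were not called, and the direction split by role: enzymes, phosphatases and other regulators rose in 11 of 17 cases and fell in 4 (median 0.62), and transcription factors rose in 6 of 15 and fell in 5 (median -0.10). Ptgs2, which encodes the inducible cyclooxygenase, lies at chr1:150100031-150108227 and measured 23.4 and 22.8 FPKM in WT 1 and WT 2 and 120.4 and 132 FPKM in KO 1 and KO 2, a log2 difference of 2.4 (SE 0.10, limma adjusted p = 2.46e-08). Gadd45b, a stress-induced regulator of MAP kinase signalling, measured 11.5 and 12.9 FPKM in WT 1 and WT 2 and 62.6 and 57.3 FPKM in KO 1 and KO 2, a log2 difference of 2.21 (SE 0.10, limma adjusted p = 6.31e-08). Both genes were about 5 times as high in the KO libraries, with no overlap between the groups. Rgs16, which shortens G protein signals, and Klf6 rose by 1.997 and 1.13 on the log2 scale. Some growth factor responders, named after their values were seen, fell: Egr1 measured 203 and 178 FPKM in WT 1 and WT 2 and 104 and 82.1 FPKM in KO 1 and KO 2, a log2 difference of -1.03 (SE 0.13, limma adjusted p = 5.34e-05), and the log2 differences of Egr3, Ier2 and Arc were -1.54, -1.13 and -1.43. Among the FOS genes, which are also immediate-early, Fos and Fosb fell, with log2 differences of -2.18 and -2.56, and Fosl2 rose by 1.63. Fosb is not among the 32 genes counted above. In the prostaglandin list, 2 of 13 members rose and 5 fell, and 1 of the 2 was again Ptgs2. The other was Pla2g4a, the phospholipase that frees arachidonic acid, with 28.7 and 30.5 FPKM in WT 1 and WT 2 and 85.8 and 87.8 FPKM in KO 1 and KO 2, a log2 difference of 1.52 (SE 0.09, limma adjusted p = 3.94e-07). The 5 falls, among them the prostacyclin receptor Ptgir at 2.39 and 1.85 against 0.642 and 0.578 FPKM, were smaller, and they numbered 2 without WT 1 and 3 without KO 1.

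Receptor tyrosine kinase ligands and receptors changed in both directions. Ligands rose in 9 of 19 cases and fell in 7 (median 0.17), and receptors rose in 4 of 14 and fell in 8 (median -0.74). Neurotrophic factors were among the largest rises. Bdnf, brain-derived neurotrophic factor, measured 12.2 and 13.4 FPKM in WT 1 and WT 2 and 45 and 53.5 FPKM in KO 1 and KO 2, a log2 difference of 1.86 (SE 0.11, limma adjusted p = 3.36e-07). Gdnf, the ligand of the RET complex, measured 0.722 and 0.768 FPKM in WT 1 and WT 2 and 9.5 and 8.82 FPKM in KO 1 and KO 2, a log2 difference of 2.54 (SE 0.11, limma adjusted p = 4.905e-08). Both genes were higher in both KO libraries, and Gdnf was under 1 FPKM in both WT libraries. Gdnf thus passed the filter through KO alone, so its rise and the count that holds it carry no direction of their own. Csf1 and Vegfa, growth factors of macrophages and of vessels, rose by 1.09 and 0.800. A receptor that binds neurotrophins went the other way: Ngfr, at chr11:95568818-95587735, measured 49.9 and 51.6 FPKM in WT 1 and WT 2 and 2.97 and 1.7 FPKM in KO 1 and KO 2, a 21.7-fold fall and a log2 difference of -3.98 (SE 0.16, limma adjusted p = 2.35e-08). Ngfr is counted among the receptors of this list, though it is not itself a tyrosine kinase. Gas6, the ligand of Axl, measured 196 and 191 FPKM in WT 1 and WT 2 and 27.2 and 25.1 FPKM in KO 1 and KO 2, a log2 difference of -2.84 (SE 0.09, limma adjusted p = 9.85e-09), so ligand and receptor of that pair moved in opposite directions. Receptors of growing mesenchyme fell as well. Pdgfra measured 25.6 and 23.3 FPKM in WT and 8.6 and 8.47 FPKM in KO. Pdgfrb measured 41.5 and 39.6 FPKM and 18.3 and 16 FPKM. Fgfr1 measured 91.2 and 93.3 FPKM and 41.2 and 33.3 FPKM. Their log2 differences were -1.42, -1.2 and -1.29, each with no overlap between the groups. Angpt1, the ligand of the TIE2 receptor, fell by 1.68.

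Of 15 tested genes that report or limit ERK signalling, 3 were higher and 8 lower, with a median of -0.34. The feedback genes were mostly lower, with 1 of 8 higher and 5 lower (median -0.47). Target genes were split, with 2 of 7 higher and 3 lower (median 0.003). Spry4, a feedback inhibitor of receptor tyrosine kinases, measured 20.4 and 19.13 FPKM in WT 1 and WT 2 and 4.65 and 4.0 FPKM in KO 1 and KO 2, a log2 difference of -1.96 (SE 0.11, limma adjusted p = 1.91e-07). Etv4, an ETS factor switched on by FGF and ERK, measured 39.9 and 34.3 FPKM in WT 1 and WT 2 and 9.61 and 8.51 FPKM in KO 1 and KO 2, a log2 difference of -1.92 (SE 0.11, limma adjusted p = 2.68e-07). WT was more than 4-fold above KO in both, and the libraries of a group lay close together. Etv5, Spry1 and Dusp6, of the same feedback circuit, fell, with log2 differences of -1.63, -1.39 and -1.12. Ccnd1, cyclin D1, rose by 0.54, from 146 and 147 to 206 and 221 FPKM.

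Co-receptors of the Hedgehog pathway, a patterning signal of the embryo, were lower. None of 6 tested receptor genes was higher and 4 were lower (median -1.38), and 3 of the 5 effectors fell (median -0.52). Boc, a co-receptor for Sonic hedgehog at chr16:44485049-44558897, measured 51.8 and 50.7 FPKM in WT 1 and WT 2 and 6.51 and 5.48 FPKM in KO 1 and KO 2, an 8.55-fold fall and a log2 difference of -2.91 (SE 0.11, limma adjusted p = 1.597e-08). Gas1, a co-receptor of the cell surface, measured 141 and 151 FPKM in WT 1 and WT 2 and 42.2 and 39.9 FPKM in KO 1 and KO 2, a log2 difference of -1.8 (SE 0.10, limma adjusted p = 1.39e-07). WT lay above KO in each, as it did for the third co-receptor, Cdon, which fell by 1.38. Gli1, whose transcription reports the pathway, measured 2.61 and 2.16 FPKM in WT 1 and WT 2 and 0.153 and 0.0754 FPKM in KO 1 and KO 2, a log2 difference of -1.6 (SE 0.13, limma adjusted p = 3.14e-06). Gli1 passed the filter through WT alone, so its fall and the count that holds it carry no direction of their own. Ptch1 and Smo were not called (limma adjusted p = 0.0691 and 0.728). The 3 tested target genes were higher, and Foxf1 was the largest, with 0.734 and 0.631 FPKM in WT 1 and WT 2 and 2.9 and 2.39 FPKM in KO 1 and KO 2. Foxf1 passed the filter through KO alone, where it is high, so its rise and the count that holds it carry no direction of their own.

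The insulin-like growth factor axis had 4 of 18 members higher and 8 lower (median -0.23). Its binding proteins, which carry and trap the factors, fell in 5 of 8 cases and rose in 1. Igfbp5 measured 40.8 and 34.9 FPKM in WT 1 and WT 2 and 3.02 and 3.78 FPKM in KO 1 and KO 2, an 11.1-fold fall and a log2 difference of -3.14 (SE 0.12, limma adjusted p = 2.16e-08). Igfbp3 measured 301 and 324 FPKM in WT 1 and WT 2 and 67.6 and 74.4 FPKM in KO 1 and KO 2, a log2 difference of -2.13 (SE 0.10, limma adjusted p = 6.21e-08). The KO libraries were lower without overlap, also for Igfbp4, which fell by 1.69 from above 300 FPKM in both WT libraries. Igf1 fell from 5.37 and 5.5 to 0.523 and 0.865 FPKM, and its receptor Igf1r rose from 12 and 11.9 to 17.2 and 17 FPKM. In Notch signalling, a contact pathway of cell fate, 2 of 17 members rose and 8 fell (median -0.14). Dlk1, a non-canonical ligand of immature mesenchyme, measured 26.9 and 24 FPKM in WT 1 and WT 2 and 5.31 and 5.0 FPKM in KO 1 and KO 2, a log2 difference of -2.1 (SE 0.11, limma adjusted p = 9.73e-08), and Jag2 measured 2.99 and 4.98 FPKM in WT 1 and WT 2 and 0.436 and 0.274 FPKM in KO 1 and KO 2, a log2 difference of -1.85 (SE 0.18, limma adjusted p = 1.003e-05). Notch4 and the feedback gene Nrarp fell, with log2 differences of -1.88 and -1.49, whereas the target Hes1 was not called (limma adjusted p = 0.481). Jag2, Notch4 and Nrarp passed the filter through WT alone, so their falls and the counts that hold them carry no direction of their own.

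Axon guidance molecules, which steer migrating cells as well as neurons, were lower in 22 of 45 cases and higher in 7 (median -0.29). Eph receptors fell in 6 of 8 cases, ephrins in 4 of 6 and semaphorins in 7 of 15. Ntn1, netrin-1, measured 21 and 18.2 FPKM in WT 1 and WT 2 and 3.22 and 2.93 FPKM in KO 1 and KO 2, a log2 difference of -2.34 (SE 0.11, limma adjusted p = 7.35e-08). Sema3c, a secreted semaphorin, measured 19.9 and 21.7 FPKM in WT 1 and WT 2 and 59.3 and 69.6 FPKM in KO 1 and KO 2, a log2 difference of 1.58 (SE 0.11, limma adjusted p = 8.41e-07), and was the largest rise of the list. The groups did not overlap in either. Sema6a and Sema4a fell, with log2 differences of -1.37 and -1.5. Slit2 rose by 0.87 and its receptor Robo1 fell by 0.81. Efnb2, a ligand of EphB receptors, rose by 0.89.

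Complement genes were mostly lower and genes of the coagulation group mostly higher. Of 12 tested complement genes none rose and 8 fell (median -0.49), and of 7 coagulation genes 5 rose and 2 fell (median 0.83). C1s1, a protease of the first complement complex, measured 33.7 and 34.3 FPKM in WT 1 and WT 2 and 6.83 and 5.58 FPKM in KO 1 and KO 2, a log2 difference of -2.28 (SE 0.11, limma adjusted p = 7.98e-08). C4b, its substrate, fell by 1.95, and Cd55, which protects host cells from complement, fell by 1.57. F2rl1, a protease-activated receptor of epithelia, measured 20.7 and 18.6 FPKM in WT 1 and WT 2 and 2.17 and 0.622 FPKM in KO 1 and KO 2, a log2 difference of -3.19 (SE 0.24, limma adjusted p = 1.63e-06), so that the 2 coagulation genes that fell included the largest change. F3, tissue factor, which starts clotting, rose from 61.8 ± 0.271 to 123 ± 5.83 FPKM, and F2r, the thrombin receptor, from 58.8 ± 0.271 to 133 ± 0.745 FPKM. Procr, the protein C receptor, and Thbd, thrombomodulin, which both damp clotting, rose by 1.34 and 0.83. Plaur, the urokinase receptor, rose from 44.3 ± 2.88 to 119 ± 1.04 FPKM. The KO libraries were the higher ones in F3, F2r, Procr, Thbd and Plaur.

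In 6 of the 16 members of this list with a promoter in the table (C1qtnf6, F3, F2r, Procr, Plaur and Serpinb2) the AP-1 letters TGANTCA occurred on either strand, against 6.10% of all 8888 promoters, and AP-1 is the family of FOS and JUN factors. The windows of 3 of them are shown with those of Bdnf and of the metallothionein gene Mt2, and these 5 genes were chosen because they rose. C1qtnf6 holds the letters too and fell, with a log2 difference of -1.71, so the letters were not confined to genes that rose. Capitals mark the match, and the build is GRCm38.p6. They lie at chr7:24462389-24462445 on the plus strand for Plaur, chr13:95618639-95618695 on the minus strand for F2r, chr2:155751038-155751094 on the plus strand for Procr, chr2:109676855-109676911 on the plus strand for Bdnf and chr8:94172514-94172570 on the plus strand for Mt2.
Plaur: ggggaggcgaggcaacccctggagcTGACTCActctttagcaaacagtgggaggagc
F2r: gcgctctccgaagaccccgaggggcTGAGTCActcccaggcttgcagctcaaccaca
Procr: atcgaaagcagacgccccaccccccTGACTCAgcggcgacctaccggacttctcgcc
Bdnf: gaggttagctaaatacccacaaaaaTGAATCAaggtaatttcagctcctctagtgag
Mt2: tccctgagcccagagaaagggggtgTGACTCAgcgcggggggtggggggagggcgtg
The Procr and Mt2 matches run on into the letters gc, which makes them matches of the NRF2 motif TGACNNNGC as well. The Bdnf match, TGAATCA, holds A at the open position N, where the others hold C or G as in the usual AP-1 site. Nothing about binding follows from these letters.

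Cytokines and their receptors outside the chemokine and interleukin-6 families rose in 15 of 33 cases and fell in 10 (median 0.21). Grem1, a secreted antagonist of bone morphogenetic proteins, measured 108 and 106 FPKM in WT 1 and WT 2 and 476 and 513 FPKM in KO 1 and KO 2, a 4.62-fold rise and a log2 difference of 2.2 (SE 0.10, limma adjusted p = 4.11e-08). Tnfrsf11b, the decoy receptor osteoprotegerin, measured 8.21 and 8.52 FPKM in WT 1 and WT 2 and 25.4 and 33.8 FPKM in KO 1 and KO 2, a log2 difference of 1.7 (SE 0.13, limma adjusted p = 1.91e-06). Both were clearly separated between the groups. Inhba, a subunit of activin, rose by 1.25. Il33, an alarmin of barrier cells, fell from 4.73 and 5.53 to 0.902 and 1.08 FPKM, and Il1r1, the interleukin-1 receptor, from 14.7 and 14.6 to 4.5 and 4.19 FPKM.

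Transcription factors of mesenchymal identity outside the HOX clusters rose in 19 of 48 cases and fell in 12 (median 0.24). Homeobox members rose in 11 of 20 and fell in 2 (median 0.42). Msx2, a factor of craniofacial and limb mesenchyme, rose from 6.66 and 7.32 to 25.3 and 23.8 FPKM while its paralogue Msx1 fell from 18 and 17.2 to 8.55 and 4.65 FPKM. The odd-skipped pair split too: Osr1 rose by 0.93, and Osr2, with 14 and 16 FPKM in WT 1 and WT 2 and 3.46 and 2.36 FPKM in KO 1 and KO 2, fell with a log2 difference of -2.04 (SE 0.14, limma adjusted p = 9.71e-07). Sox4 rose by 1.21 and Sox11, of the same SoxC group, fell by 1.59. Tcf15, a regulator of somites that also marks cells leaving pluripotency, measured 4.96 and 4.37 FPKM in WT 1 and WT 2 and 0.207 and 0.0538 FPKM in KO 1 and KO 2, a log2 difference of -2.33 (SE 0.13, limma adjusted p = 2.11e-07). It was under 1 FPKM in both KO libraries. Irx3 and Runx1 rose by 1.58 and 1.01, and Foxd1 fell by 1.74.

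Regulators of germ layers and trophoblast were called in 12 of 13 cases, 6 in each direction, with 13 of 34 list genes passing the filter. Tfap2c, needed in trophoblast and germ cells, measured 15.7 and 14.3 FPKM in WT 1 and WT 2 and 0.527 and 0.182 FPKM in KO 1 and KO 2, a 42.4-fold fall and a log2 difference of -3.57 (SE 0.14, limma adjusted p = 2.16e-08). It was under 1 FPKM in both KO libraries. Gata3 and Ets2, also trophoblast factors, rose by 1.24 and 1.26. Of 38 germline genes in the files only 5 passed the filter. The 4 that fell passed it through WT, where they are high, so their count carries no direction of its own, and Ddx4, the RNA helicase of germ cells, measured 4.16 and 4.31 FPKM in WT 1 and WT 2 and 0.521 and 0.589 FPKM in KO 1 and KO 2, a log2 difference of -1.75 (SE 0.12, limma adjusted p = 7.58e-07). Among retinoid and nuclear receptor genes, 6 of 24 rose and 8 fell. The 2 cellular retinoic acid binding proteins moved apart: Crabp1 measured 177 and 178 FPKM in WT 1 and WT 2 and 19.5 and 21.8 FPKM in KO 1 and KO 2, a log2 difference of -3.05 (SE 0.10, limma adjusted p = 7.79e-09), and Crabp2 rose from 63.7 ± 0.313 to 175 ± 11.3 FPKM. Esrrb and Nr5a2, orphan receptors of the pluripotency network, fell, with log2 differences of -3.33 and -2.98. The thyroid hormone receptor Thra fell by 1.17.

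The nuclear envelope was lower. Of 62 tested genes of the lamina, nuclear pore and nuclear transport 33 fell, 8 rose and 21 were not called, with a median of -0.32. Without WT 1 the number that rose was 5. Lamina genes fell in 10 of 14 cases (median -0.72), pore proteins in 15 of 24 (-0.43) and transport factors in 8 of 24 (-0.13). Lmnb1, lamin B1, measured 61.2 and 59.7 FPKM in WT 1 and WT 2 and 6.57 and 6.48 FPKM in KO 1 and KO 2, a 9.26-fold fall and a log2 difference of -3.03 (SE 0.10, limma adjusted p = 6.96e-09). Lbr, the lamin B receptor, which tethers heterochromatin, measured 21.5 and 24.7 FPKM in WT 1 and WT 2 and 6.17 and 6.1 FPKM in KO 1 and KO 2, a log2 difference of -1.75 (SE 0.11, limma adjusted p = 3.798e-07). The KO libraries were low in both genes and nearly equal to each other. Tmpo, a lamina-associated protein, and Lmnb2, lamin B2, fell, with log2 differences of -1.18 and -1.03. Lmna, lamin A and C, the lamin of differentiated cells, was called with a far smaller difference of -0.33, from 284 and 262 to 220.1 and 215 FPKM (limma adjusted p = 0.0145), and that call was lost without WT 1 (limma adjusted p = 0.149). Syne1, which links the nucleus to the cytoskeleton, rose from 4.48 ± 0.0277 to 13.1 ± 0.721 FPKM. Nup210, a pore membrane protein, fell from 3.41 and 4.18 to 0.174 and 0.155 FPKM and Nup107, of the pore scaffold, from 23.1 and 23.9 to 9.69 and 10.8 FPKM. The import carrier Kpna2 and the Ran exchange factor Rcc1 fell, with log2 differences of -1.18 and -1.12, whereas Kpnb1, the common import receptor, was not called (limma adjusted p = 0.367). Genes of dividing cells were lower in the same libraries, for example Mki67 with 15.8 and 14.9 FPKM in WT 1 and WT 2 and 2.6 and 2.3 FPKM in KO 1 and KO 2 and Ccnb1 with 76.3 and 86.3 FPKM in WT 1 and WT 2 and 9.5 and 8.65 FPKM in KO 1 and KO 2. Their part in the fall of the envelope genes was not tested.

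Lbr, Kpna2 and Rcc1 carry in their promoters the letters of the cell cycle homology region (CHR), an element of genes expressed late in the cell cycle. The letters TTTGAA, or TTCAAA on the opposite strand, were found in 13 of 50 list members with a promoter and in 13.8% of all 8888 genes. The matches are in capitals, in GRCm38.p6, at chr1:181842416-181842471 on the minus strand for Lbr, chr11:106999530-106999585 on the minus strand for Kpna2 and chr4:132345942-132345997 on the minus strand for Rcc1.
Lbr: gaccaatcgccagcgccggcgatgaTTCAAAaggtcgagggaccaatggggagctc
Kpna2: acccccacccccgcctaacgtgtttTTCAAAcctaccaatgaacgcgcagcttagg
Rcc1: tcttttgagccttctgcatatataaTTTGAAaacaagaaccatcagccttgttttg
They are printed because these genes fell together, and the letters alone do not show that the element is used.

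Core spliceosome genes fell in 26 of 43 cases and none rose, with a median of -0.32. Without WT 1 the number that fell was 17. The Sm and LSm ring proteins, which assemble on the small nuclear RNAs, fell in 16 of 20 cases (median -0.45), and the U2 and U5 particle proteins in 10 of 23 (-0.22). Lsm3 measured 88 and 94.4 FPKM in WT 1 and WT 2 and 34.8 and 30.5 FPKM in KO 1 and KO 2, a log2 difference of -1.46 (SE 0.10, limma adjusted p = 9.92e-07). Snrpg measured 678 and 622 FPKM in WT 1 and WT 2 and 286 and 256 FPKM in KO 1 and KO 2, a log2 difference of -1.26 (SE 0.10, limma adjusted p = 3.26e-06). WT was above KO without overlap in both genes. Lsm5, Lsm6 and Sf3b5 fell, with log2 differences of -1.25, -0.99 and -0.805, while Snrnp70 and Prpf6 were not called (limma adjusted p = 0.71 and 0.691). Of 53 tested SR and hnRNP splicing regulators 5 rose and 20 fell. The number that rose was 1 without WT 1, 8 without KO 1 or with the replicate number as a block, 2 without KO 2 and 3 with no filter, and the number that fell was 12 without WT 2. Members of the hnRNP group fell in 10 of 17 cases. Hnrnpa1, an abundant repressor of exons, measured 541 and 613 FPKM in WT 1 and WT 2 and 246 and 277 FPKM in KO 1 and KO 2, a log2 difference of -1.14 (SE 0.11, limma adjusted p = 9.39e-06), and Srsf2 measured 171 and 191 FPKM in WT 1 and WT 2 and 93.2 and 96.9 FPKM in KO 1 and KO 2, a log2 difference of -0.92 (SE 0.10, limma adjusted p = 2.18e-05). Mbnl2, a splicing factor of differentiated cells, rose by 0.82. Small ring proteins and Hnrnpa1 have processed copies in the genome, so their levels are uncertain for the same reason as those of the tubulins.

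Enzymes that supply nucleotides fell in 19 of 40 cases and rose in 6 (median -0.26), and without KO 1 the number that rose was 10. Ribonucleotide reductase and salvage genes had a median of -0.82. Rrm2, the reductase subunit of dividing cells, measured 127 and 143 FPKM in WT 1 and WT 2 and 25.6 and 25.6 FPKM in KO 1 and KO 2, a log2 difference of -2.35 (SE 0.10, limma adjusted p = 3.49e-08). Tk1, thymidine kinase, measured 40.6 and 40.9 FPKM in WT 1 and WT 2 and 12.5 and 9.21 FPKM in KO 1 and KO 2, a log2 difference of -1.83 (SE 0.13, limma adjusted p = 1.06e-06). Both KO libraries were far below both WT libraries in each gene. Rrm1 and Dut fell, with log2 differences of -1.66 and -1.61. The reductase subunit that p53 induces in resting cells, Rrm2b, rose from 3.2 and 3.97 to 6.65 and 9.01 FPKM, and Samhd1, which breaks down deoxynucleotides, from 26.7 and 27 to 45 and 40.3 FPKM. Ppat, which opens purine synthesis, fell by 1.07, and the purine enzyme Adssl1 rose by 1.44.

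**Figure D3:**
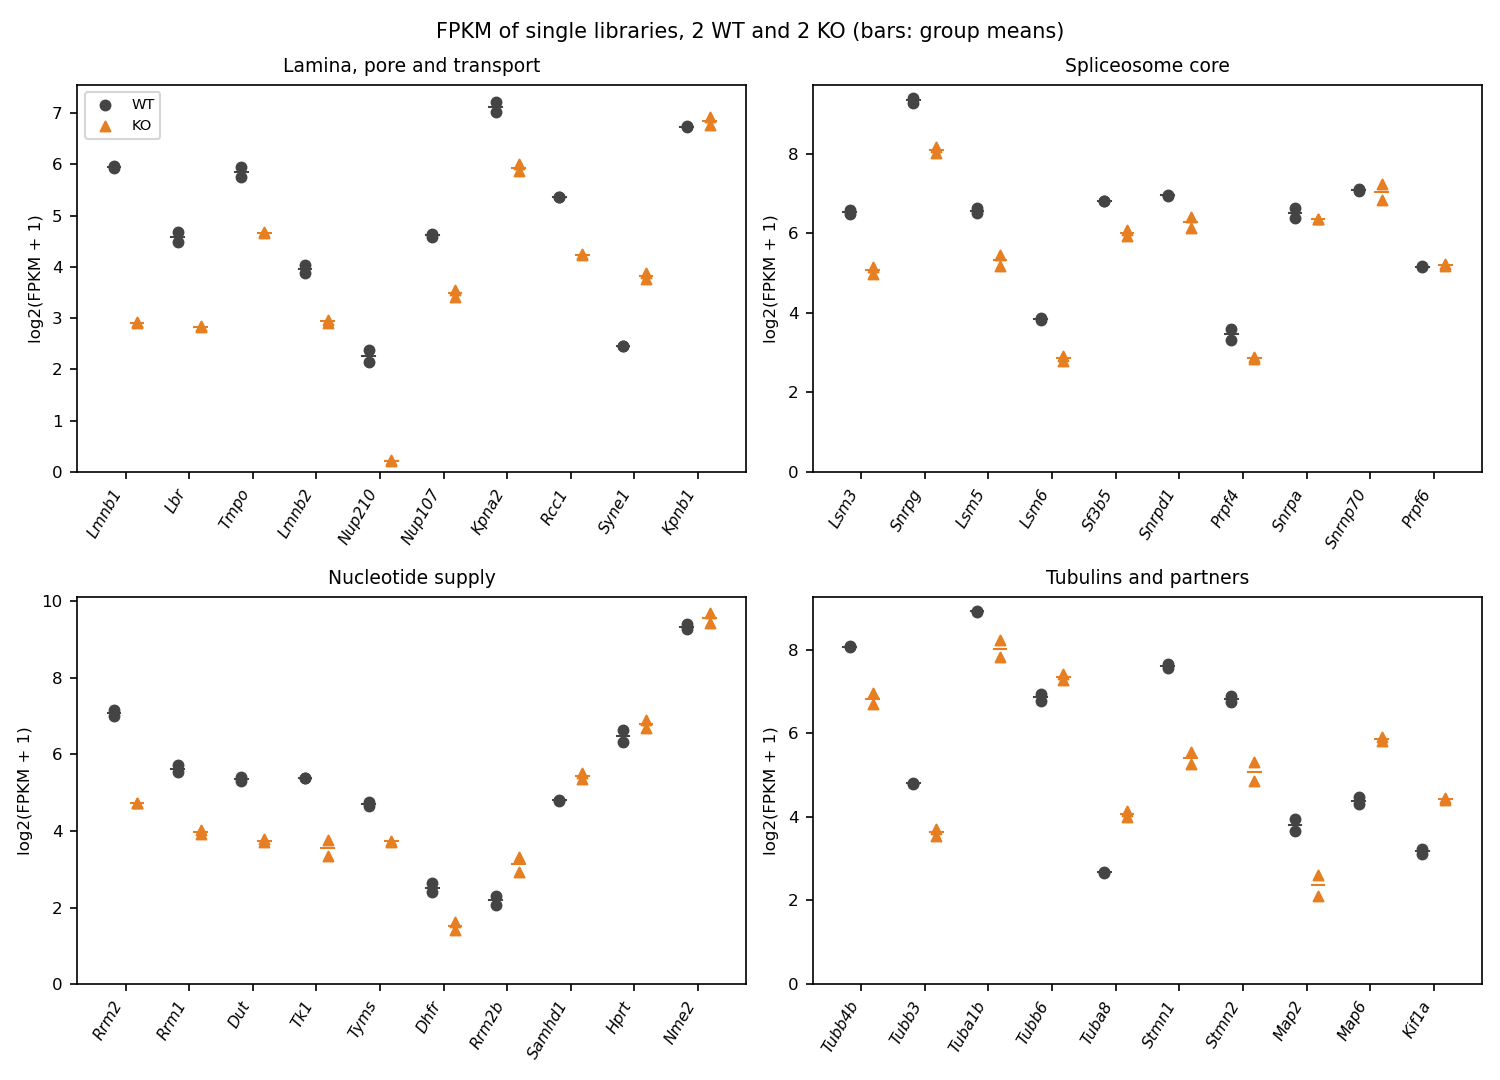
Log2(FPKM + 1) of single libraries for genes of the nuclear envelope, the core spliceosome, nucleotide supply and the tubulins with their partners, with WT as circles, KO as triangles and a bar at each group mean. Lmnb1, Lbr, Rrm2 and Stmn1 are lower in both KO libraries, Syne1, Rrm2b, Tuba8 and Map6 are higher, and WT and KO lie near each other for Kpnb1, Snrnp70 and Prpf6.

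Genes of the machines that make ribosomes, translate and turn over RNA had medians near 0. Of 71 ribosome biogenesis genes 12 rose and 18 fell (median -0.06), of 56 translation factors 13 rose and 10 fell (0.05), and of 60 RNA decay genes 10 rose and 20 fell (-0.14), all near or under the background shares. The numbers that rose were 5, 8 and 4 without WT 1, 6 RNA decay genes rose without KO 2, and 5 translation factors fell without WT 2. With the replicate number as a block, 20 translation factors rose. Dkc1, which modifies ribosomal RNA and stabilises telomerase RNA, measured 38 and 43.8 FPKM in WT 1 and WT 2 and 15.7 and 15.7 FPKM in KO 1 and KO 2, a log2 difference of -1.32 (SE 0.10, limma adjusted p = 2.14e-06), and its partner Nop10 fell by 1.18. The inhibitors of the cap-binding factor eIF4E moved apart: Eif4ebp1 measured 134 and 129 FPKM in WT 1 and WT 2 and 247 and 294 FPKM in KO 1 and KO 2, a log2 difference of 1.03 (SE 0.11, limma adjusted p = 1.72e-05), and Eif4ebp2 measured 32.5 and 32 FPKM in WT 1 and WT 2 and 17.1 and 15.3 FPKM in KO 1 and KO 2, a log2 difference of -0.96 (SE 0.10, limma adjusted p = 1.77e-05). The groups did not overlap in either. Lin28a, which blocks the maturation of let-7, fell to 0.165 and 0.111 FPKM from 4.02 and 3.26 FPKM. Exosc8 of the RNA exosome fell by 0.91 and the decapping gene Dcp1b rose by 0.76. The measured rows span chr3:54692809-54749795 for Exosc8 and chr6:118587239-119222139 for Dcp1b, both wider than the annotated genes. Whether neighbouring genes add to these values was not tested. Transcripts known to be recoded by A-to-I editing were higher in 8 of 16 cases and lower in 3 (median 0.25, or -0.00312 with no filter on low values). Their levels say nothing of editing, which FPKM does not hold. Mex3b, an RNA-binding ubiquitin ligase, measured 2.98 and 3.33 FPKM in WT 1 and WT 2 and 8.35 and 7.53 FPKM in KO 1 and KO 2, a log2 difference of 1.11 (SE 0.11, limma adjusted p = 1.49e-05), Flna, filamin A, rose from 148 ± 7.66 to 235 ± 12.1 FPKM, and Elavl2 fell by 0.87 (limma adjusted p = 0.00183).

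Metal handling genes rose in 15 of 42 cases and fell in 9 (median 0.07). Hmox1, which breaks down haem, lies at chr8:75093621-75100589 and measured 131 and 116 FPKM in WT 1 and WT 2 and 710.0 and 760.4 FPKM in KO 1 and KO 2, a log2 difference of 2.57 (SE 0.10, limma adjusted p = 2.46e-08). Mt2, a zinc-binding metallothionein, measured 734 and 563 FPKM in WT 1 and WT 2 and 1639.5 and 2367 FPKM in KO 1 and KO 2, a log2 difference of 1.61 (SE 0.18, limma adjusted p = 2.36e-05). Both genes were higher in both KO libraries, and the KO libraries of Mt2 were themselves spread. Fth1, the ferritin heavy chain, and Cp, which oxidises iron for export, rose by 0.57 and 1.4, and Tfrc, which imports iron, fell by 1.06. Mt4, a metallothionein of stratified epithelia, measured 5.05 and 4.75 FPKM in WT and was listed at 0 in both KO libraries, a log2 difference of -2.56 (SE 0.12, limma adjusted p = 6.403e-08). Of 38 citric acid cycle and glutamine genes 9 rose and 8 fell, and 5 rose without WT 1. Gpt2, which feeds glutamate carbon into the cycle, rose from 5.25 and 7.59 to 19.14 and 19.4 FPKM, a log2 difference of 1.47 (SE 0.14, limma adjusted p = 9.81e-06). Idh1 fell from 63.6 and 72.7 to 32 and 34 FPKM, a log2 difference of -1.02 (SE 0.10, limma adjusted p = 1.32e-05), and its mitochondrial counterpart Idh2 fell by 0.75.

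Lipid and sugar synthesis held a few large changes among many small ones. Sphingolipid genes rose in 13 of 25 cases and fell in 4 (median 0.31). Cers2, which makes very long ceramides, Asah1, the acid ceramidase, and Sgpl1, which closes the pathway, rose by 0.901, 0.92 and 1.02. The receptor S1pr3 measured 39 and 34.8 FPKM in WT 1 and WT 2 and 6.31 and 7.19 FPKM in KO 1 and KO 2, a log2 difference of -2.29 (SE 0.11, limma adjusted p = 6.602e-08). Chka, the first enzyme of phosphatidylcholine synthesis, measured 12.1 and 11.3 FPKM in WT 1 and WT 2 and 60.5 and 53.8 FPKM in KO 1 and KO 2, a log2 difference of 2.2 (SE 0.10, limma adjusted p = 6.21e-08), and Pcyt1b, an isoform of the next enzyme, fell by 2.16. Glycosaminoglycan genes fell in 22 of 58 cases and rose in 9 (median -0.13). Vcan, the large proteoglycan of loose mesenchyme, measured 62.2 and 64.1 FPKM in WT 1 and WT 2 and 16.1 and 15.5 FPKM in KO 1 and KO 2, a log2 difference of -1.94 (SE 0.09, limma adjusted p = 7.67e-08). Glce, which shapes heparan sulfate, measured 6.61 and 7.85 FPKM in WT 1 and WT 2 and 21.7 and 23.6 FPKM in KO 1 and KO 2, a log2 difference of 1.52 (SE 0.11, limma adjusted p = 1.33e-06). Cd44, the hyaluronan receptor, rose by 0.996, and Gpc3 fell by 1.48. N-glycosylation genes fell in 17 of 51 cases and rose in 9, or in 4 with no filter on low values and in 5 without either WT library. Alg13, which acts early in building the lipid-linked sugar chain, measured 34.4 and 33.5 FPKM in WT 1 and WT 2 and 6.96 and 6.23 FPKM in KO 1 and KO 2, a log2 difference of -2.2 (SE 0.10, limma adjusted p = 5.76e-08). The branching enzymes Mgat4a and Mgat4b changed in opposite directions, by -1.4 and 1.06.

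Ion channels, pumps and connexins were called in 42 of 58 cases, 19 higher and 23 lower. Atp2a3, a calcium pump of the endoplasmic reticulum in epithelial and blood cells, measured 27.4 and 31.5 FPKM in WT 1 and WT 2 and 1.23 and 0.598 FPKM in KO 1 and KO 2, a 32.3-fold fall and a log2 difference of -4.01 (SE 0.15, limma adjusted p = 2.16e-08). Gjb2, connexin 26, measured 1.64 and 1.82 FPKM in WT 1 and WT 2 and 20.3 and 21.3 FPKM in KO 1 and KO 2, a 12-fold rise and a log2 difference of 2.996 (SE 0.11, limma adjusted p = 1.36e-08). These were the extremes of the list, with no overlap in either. Cacna1g, a T-type calcium channel, and Aqp3, a water and glycerol channel of epithelia, fell, with log2 differences of -2.08 and -2.55. Of 22 circadian genes 9 rose and 5 fell, and 3 fell without WT 1. Nfil3, a repressor of the clock output that also answers cytokines, measured 9.11 and 10.3 FPKM in WT 1 and WT 2 and 55.1 and 49.7 FPKM in KO 1 and KO 2, a log2 difference of 2.32 (SE 0.11, limma adjusted p = 5.38e-08). Bhlhe41 and Ciart, repressors of the clock, rose by 1.38 and 1.37, and Per3 fell by 0.89.

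The remaining lists stayed near or below the background. Fatty acid oxidation and peroxisome genes rose in 10 of 42 cases and fell in 3, vesicle transport genes in 8 and 9 of 53, and ciliary genes in 12 and 15 of 46. Of the fatty acid genes 6 rose without WT 2, and 3 vesicle genes rose and 5 fell without WT 1. After quantile scaling 14 vesicle genes fell, and with the replicate number as a block 13 rose. Ciliary genes rose in 4 cases without WT 1, in 5 without KO 2 and in 6 with no filter on low values, and fell in 9 without either WT library and in 8 after quantile scaling. Acadl rose by 0.53 and Acadm fell by 0.51, which oxidise long and medium fatty acids. Tmed3 and Copg2, of the transport vesicles between endoplasmic reticulum and Golgi, fell, with log2 differences of -1.01 and -0.89. The ciliary transport genes Ift80 and Wdr35 fell, with log2 differences of -0.76 and -0.72.

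Gene families sorted by symbol gave further groups. Of 14 ADAMTS proteases, which cut matrix proteoglycans, 3 rose and 11 fell (median -0.92). Adamts9 measured 13.2 and 14.6 FPKM in WT 1 and WT 2 and 1.44 and 1.23 FPKM in KO 1 and KO 2, a log2 difference of -2.67 (SE 0.11, limma adjusted p = 3.75e-08), and Adamts1 measured 185 and 199 FPKM in WT 1 and WT 2 and 42 and 42.4 FPKM in KO 1 and KO 2, a log2 difference of -2.16 (SE 0.09, limma adjusted p = 4.07e-08). Adamts5, an aggrecanase, rose by 1.18. The calcium-binding families went apart: of 9 S100 genes 6 fell and none rose (median -0.81), and of 9 annexins 6 rose and none fell (median 0.43). S100a4, a marker of motile fibroblasts, measured 1084 and 963 FPKM in WT 1 and WT 2 and 345 and 402 FPKM in KO 1 and KO 2, a log2 difference of -1.45 (SE 0.11, limma adjusted p = 2.19e-06), and Anxa3 measured 60.1 and 60.3 FPKM in WT 1 and WT 2 and 201 and 225 FPKM in KO 1 and KO 2, a log2 difference of 1.8 (SE 0.10, limma adjusted p = 1.61e-07). WT was the higher group for S100a4 and KO for Anxa3, with no overlap. Rab GTPases, which direct vesicle traffic, rose in 26 of 48 cases and fell in 6 (median 0.28), but in 14 without WT 1 and in 16 without KO 2. Rab32, of lysosome-related organelles, rose by 1.46. Trim proteins rose in 19 of 37 cases and fell in 7 (0.29). Trim30a rose by 1.43, and Trim71 and Trim28, of stem cells and of repeat silencing, fell, with log2 differences of -2.37 and -0.91. Of 290 genes named Zfp 74 rose and 40 fell (0.09), or 129 rose after quantile scaling. Zfp57, which guards imprints, measured 59.2 and 50.6 FPKM in WT 1 and WT 2 and 14.5 and 14.9 FPKM in KO 1 and KO 2, a log2 difference of -1.83 (SE 0.11, limma adjusted p = 2.53e-07).

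Outside the lists, several genes stood among the 12 largest rises or falls of genes averaging 5 FPKM or more. Cdsn, an adhesion protein of the cornified skin layer, at chr17:35552128-35557180, measured 16.8 and 18.4 FPKM in WT 1 and WT 2 and 290.4 and 263 FPKM in KO 1 and KO 2, a 15.7-fold rise and a log2 difference of 3.9 (SE 0.10, limma adjusted p = 2.52e-09). Msln, mesothelin, a surface protein of mesothelium, measured 15.2 and 12 FPKM in WT 1 and WT 2 and 97 and 112 FPKM in KO 1 and KO 2, a log2 difference of 2.86 (SE 0.12, limma adjusted p = 4.07e-08). Both KO libraries were several times above both WT libraries. Among the falls, Agtr2, an angiotensin receptor of fetal mesenchyme at chrX:21484544-21489164, measured 144 and 161 FPKM in WT 1 and WT 2 and 1.42 and 1.5 FPKM in KO 1 and KO 2, a 104-fold fall and a log2 difference of -5.96 (SE 0.10, limma adjusted p = 3.96e-10). Tdh, the threonine dehydrogenase on which mouse pluripotent cells depend, measured 65.8 and 57.9 FPKM in WT 1 and WT 2 and 2.24 and 1.07 FPKM in KO 1 and KO 2, a log2 difference of -4.6 (SE 0.18, limma adjusted p = 2.16e-08). Trh, thyrotropin-releasing hormone, and Krtdap, a keratinocyte protein, fell, with log2 differences of -4.64 and -4.38, to under 3 FPKM in both KO libraries.

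The shares of genes that rose and fell varied with the level of expression. Among the 1231 tested genes with a mean under 2 FPKM, 19.7% were higher and 41.8% lower in KO, and among the 5058 genes of 10 to 50 FPKM 33.9% were higher and 23.5% lower. The share that fell at least 2-fold was 18.2% under 2 FPKM, 6.68% from 10 to 50 FPKM and 4.61% above 100 FPKM. A gene of low mean can pass the filter through 1 group alone, and these shares are given without a test. Further, 136 genes were at 2 FPKM or more in both WT libraries and under 0.5 FPKM in both KO libraries, while 20 genes did the reverse. The 20 included Car6, a secreted carbonic anhydrase, with 0.0904 and 0.156 FPKM in WT 1 and WT 2 and 7.53 and 7.96 FPKM in KO 1 and KO 2, Soat2, a cholesterol esterifying enzyme, with 0.0839 and 0.271 FPKM in WT 1 and WT 2 and 6.84 and 5.31 FPKM in KO 1 and KO 2, and Neurl3, a ubiquitin ligase, with 0.256 and 0.0725 FPKM in WT 1 and WT 2 and 7.44 and 5.09 FPKM in KO 1 and KO 2. Matched to the GENCODE M21 annotation, genes of chromosome X were higher in 21.04% and lower in 37.4% of 385 cases, against 28.3% lower over all 11231 matched genes. The Y-linked Uty was called higher, with 4.62 and 6.32 FPKM in WT 1 and WT 2 and 7.38 and 8.81 FPKM in KO 1 and KO 2 (limma adjusted p = 0.0122), a call that was lost without WT 1 (limma adjusted p = 0.121), as it was when the low values were left unfiltered (limma adjusted p = 0.0672). Ddx3x, an X-linked RNA helicase, fell by 0.56.

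**Figure D4:**
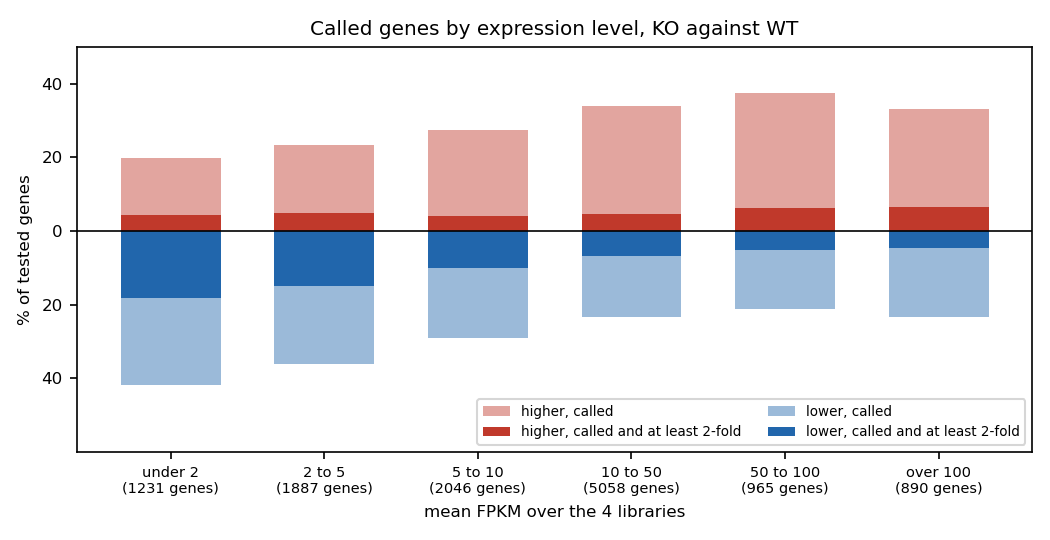
Percent of tested genes called higher (above the line) and lower (below the line) in KO, by mean FPKM over the 4 libraries, with darker bars for those of at least 2-fold. The share called lower is largest, 41.8%, for genes under 2 FPKM, and the share called higher is larger than the share called lower from 10 FPKM upwards.

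A set of 10 short motifs was searched on both strands in the RefSeq promoters of 8888 tested genes, each 300 bases long, from 250 before to 50 after the start. The AP-1 letters TGANTCA were found for 6.10% of all genes, for 14.2% of the 400 genes that rose at least 2-fold and for 6.58% of the 806 that fell at least 2-fold. The IRF motif of interferon-induced genes (GAAA and, after any 2 bases, GAAA again) was found for 3.58%, 10.2% and 3.47%, and the C/EBP-ATF letters TGATGNAA of stress-induced genes for 2.70%, 7.25% and 4.34%. Among genes that fell, the CHR letters TTTGAA were found for 22.5% against 13.8% of all, and the E2F letters TTGGCGC, of genes of DNA replication, for 8.56% against 5.31%. The TEAD letters GGAATG were found for 14.4% of all, 18.5% of those that rose and 16.5% of those that fell. The CCAAT box was found for 42.9% of all genes, 40.8% of those that rose and 48.8% of those that fell. The E-box CACGTG was found for 11.8%, 13.2% and 9.43%, and the CRE letters TGACGTCA for 3.71%, 2.25% and 3.47%. The NRF2 letters TGACNNNGC were found for 17.1% of all genes and 14.3% of those that fell. The groups also differed in composition, with a median GC content of 61.3% over all promoters and 59.7% in each changed group, and genes with several start sites were searched in each. These shares are descriptions without a test, and the part of base composition in them was not tested.

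**Figure D5:**
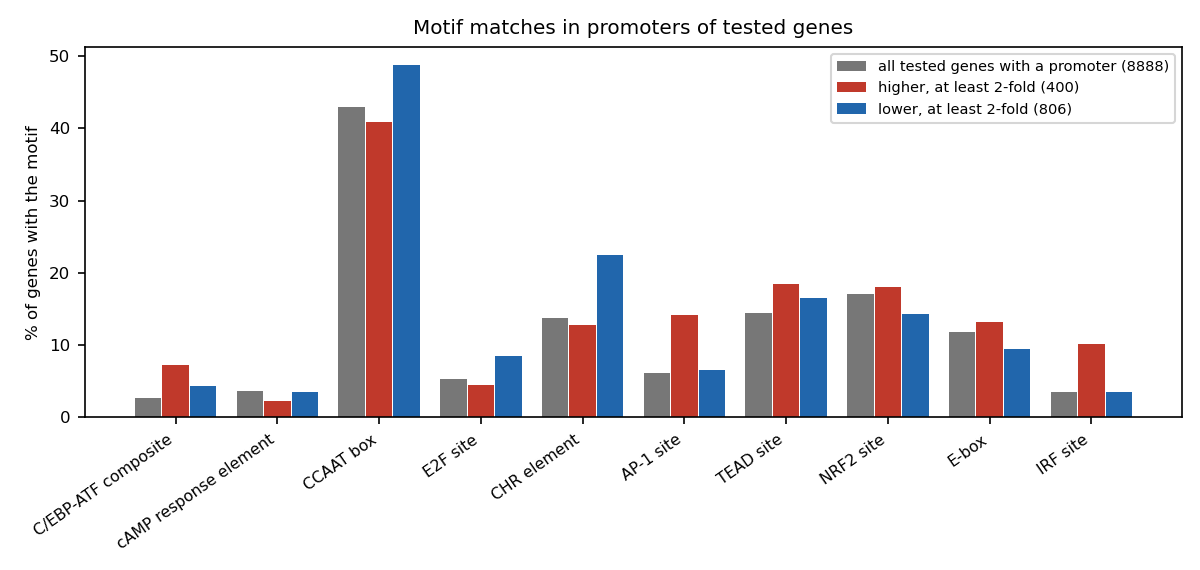
Percent of genes whose RefSeq promoter holds each of 10 motifs, for all 8888 tested genes with a promoter, for the 400 that rose at least 2-fold and for the 806 that fell at least 2-fold. The AP-1, IRF and C/EBP-ATF bars are taller for genes that rose, and the CHR and E2F bars for genes that fell.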

How the data were processed

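RNA from 4 libraries of reprogramming fibroblasts (2 WT, 2 KO) was compared. Per the labels' protocols, TRIzol was used to extract total RNA, and Ribo-Zero to remove ribosomal RNA. The deposited values are FPKM per gene, per the file headers, written with decimal commas, which were read as decimal points. The submitters' processing notes name TopHat2 2.1.1, Bowtie2 2.3.0, Cufflinks 2.2.1, GRCm38 and mm10, and the sources used here do not give the annotation, whether strand was used or how libraries were scaled. FPKM hold no counts, so counting error was not separated from other spread, and the precision rests on 2 libraries a group.

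The tables have 24879 rows, of which 1021 carry no gene name and were dropped, and each of 314 repeated names was represented by its row of highest mean. Genes with at least 1 FPKM in at least 2 of the 4 libraries were tested with limma 3.58.1 (R 4.3.3; trend, pseudocount 1, 2-sided) on log2(FPKM + 1), with Benjamini-Hochberg adjustment over all 12077 genes. On simulated data the same fit called 200 of 200 changed genes and 12 of the others. Each changed gene was moved by 1 on the log2 scale, with independent noise. The real data differ in this, so the simulation does not measure the error of the real calls. The members and the 36 gene lists (1599 distinct genes, 1335 tested) were chosen with earlier results of these data known. Named were the 12 genes that rose most and the 12 that fell most among those averaging 5 FPKM or more, with small RNAs, predicted genes and rows of several names left out (those of the chemokine, interferon, stress, matrix, epithelial and pluripotency programmes are not described here), the 2 largest called changes of each list with a mean of at least 2 FPKM, and Adar. A few genes are not reported here. Other members were named after their values were seen. Lists are described by counts and medians, without a test of the list. Promoter letters were matched in RefSeq sequences. Positions of genes are those of GENCODE M21, and the measured rows of some genes span more.

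Alternatives were another pseudocount, other filters, other scalings, no trend, the replicate number as a block, rows of several names left out, and each library left out.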

Additional observations from a re-analysis of the deposited data

How the results depend on the processing

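Over 12 alternatives the genes called higher numbered 2743 to 4107 and those called lower 2827 to 3760, within 1.5 times of 3615 and 3395 in each case. With each library left out in turn the ranges were 2743 to 3582 higher and 2827 to 3257 lower. Of all calls, 51.6% were higher, and this share was 49.0% after median-of-ratios scaling and 55.6% after quantile scaling, which moved the median of all genes from 0.02 to 0.06. The labels do not say whether same-numbered libraries share a culture. The correlation of their deviations was 0.19 over 2 pairs, which does not settle it, and the libraries were treated as unpaired. A fit with the replicate block called 4107 genes higher and 3760 lower instead of 3615 and 3395. Among list and family medians, 508 values moved by no more than the replicate spread and 215 moved by more. Changes of sign were counted only where the main median exceeded its replicate spread, and there were 9. These were the ciliary genes at 0.04995, the kinesins at 0.094 (-0.109 in the main analysis) and the solute carriers at 0.0883 with quantile scaling, the recoding targets at -0.00312 (0.252 in the main analysis) and the ion channels at -0.00882 with no filter, and 3 groups when 1 library was left out. With each library left out in turn the median of the ion channels ranged from -0.045 (without KO 1; -0.00911 without WT 1) to 0.0661, that of the citric acid cycle genes from -0.0827 to 0.0124 (without WT 2), and that of the orphan G protein-coupled receptors from -0.0842 (without KO 1) to 0.106. Of the genes taken by the naming rule 1 lost its call, Uty, with a limma adjusted p of 0.0672 with no filter and 0.121 without WT 1. Of the other genes named as changed, Lmna lost its call without WT 1. The cause of these shifts was not tested. The depth is not recorded in FPKM, and genes near 1 FPKM rest on few fragments.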
